A study of Mus with 2 samples.

Results

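Interferon-signature mature neutrophils are described here: bone marrow neutrophils past the granule-making stage that carried at least 3 UMIs over 5 interferon-induced genes, Isg15, Ifit1, Ifit3, Rsad2 and Oasl2. A UMI is a tag that marks 1 captured mRNA molecule. Among barcodes with at least 500 UMIs, at least 250 genes and at most 10% mitochondrial UMIs, a cell counted as a mature neutrophil when S100a8 and S100a9 made up at least 8% of its UMIs and the granule genes Camp, Ngp and Ltf under 1%. It also had to hold fewer than 3 UMIs of the macrophage genes C1qa, C1qb and C1qc and fewer than 3 of the monocyte genes F13a1 and Fn1. The rule found 1258 such cells among 4590 mature neutrophils and 18089 barcodes kept in all. Because the 5 genes chose the cells, their values are given only as a description, and the account turns on genes outside them.

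Neutrophils leave the marrow after a series of steps in which they first fill their granules and then switch on receptors for migration. Type I interferons bind the receptor pair encoded by Ifnar1 and Ifnar2, and the kinases JAK1 and TYK2 then activate STAT proteins, among them STAT2, which joins IRF9 to switch on a large set of antiviral genes. Among their products are sensors of foreign RNA and DNA, enzymes that block viral replication, and feedback inhibitors such as USP18, and neutrophils with this programme are a recognised subset in mouse marrow and blood.

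The study compared hindlimb bone marrow of 2 groups of mice, called ground and running, by droplet-based single-cell RNA sequencing of the 3′ ends of transcripts. Each group had 1 library. The labels give no strain, age, sex, genotype or number of mice, and do not say how the mice ran. Every interval below is a 95% interval that covers counting error only, and no difference has a replicate check.

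Ground held 431 signature cells among 2072 mature neutrophils and 8909 kept barcodes, and running held 827 among 2518 and 9180. The signature cells had 2056034 UMIs in ground and 3212512 in running, with medians of 4385 and 3511 UMIs per cell. The other mature neutrophils, 1641 in ground and 1691 in running, had medians of 4080 and 3538 UMIs. The libraries shared 24 barcodes, of which 2 were mature neutrophils and 0 were signature cells. A doublet caller marked 9 signature cells in ground and 21 in running, and they were kept. At least 5 UMIs of another cell type's defining genes were in 15 signature cells of ground (3.48%) and 31 of running (3.75%). This count was made apart from the doublet call, so the same cell can be in both. The other mature neutrophils held 80 and 48 cells with such UMIs. Results that change without these cells are given both ways.

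Neutrophil markers stood at like levels in signature cells and other mature neutrophils. S100a8, a calprotectin subunit that the rule itself used, stood at 125659 CPM in the signature cells of ground, against 124510 in those of running; CPM is a gene's UMIs divided by all UMIs of the set of cells and scaled to 1e+06. The 10 neutrophil markers had a median log2 ratio of signature cells over other mature neutrophils of 0.02 in ground and −0.09 in running, and 0 of the 10 differed by 2-fold. S100a8 and S100a9 are among the 10. Both sets of cells passed the same rule for mature neutrophils, so this likeness was in part set by the choice of cells. Csf3r, the receptor for the neutrophil growth factor G-CSF, was at 1332 CPM in signature cells and 1226 CPM in the others of ground, and at 1268 and 1116 CPM in running. Rtp4, an interferon-induced gene outside the rule, is described below.

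Signature cells made up 20.8% of the mature neutrophils of ground (interval 19.1 to 22.6%) and 32.8% of those of running (31.0 to 34.7%). The running share was 1.58 times the ground share. Running cells were shallower, so each cell was also thinned at random to 1000 UMIs, which left out 70 ground cells and 14 running cells with fewer. At least 1 rule-gene UMI was then seen in 26.4% of ground and 40.3% of running mature neutrophils, at least 2 in 9.34% and 18.1%, and at least 3 in 4.15% and 9.31%. The running share was the higher one at each of these minimums.

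Free RNA in the droplets can place such UMIs in any cell, so the same count was made in other cells of the same libraries. Of B cells, with median depths of 3334 and 3684.5 UMIs, 1.13% in ground and 3.24% in running held 3 or more UMIs of the 5 genes. Of T cells, at 4873 and 5940.5 UMIs, 1.38% and 4.28% did. Immature neutrophils, whose granule transcripts were at 1% or more, reached 4.40% and 12.1% at 9445 and 7642 UMIs, and monocytes 8.74% and 25.8% at 11651 and 10189 UMIs. Mature neutrophils exceeded these 4 classes in both libraries, and each class had the higher share in running. Cells with at least 20% haemoglobin transcripts exceeded mature neutrophils, with 41.4% and 57.0%, in 111 and 86 cells.

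Within mature neutrophils the 5 genes gave a continuous spread with no gap at the threshold. In ground 243 cells held exactly 2 UMIs, just outside the rule, and 141 held exactly 3, just inside it. In running the counts were 354 and 224. The median signature cell held 4 rule-gene UMIs in ground and 5 in running, and the highest 45 and 98. Cells with 10 or more numbered 71 in ground and 149 in running, which was 16.5% and 18.0% of the signature cells, and they held 43.6% of the signature cells' rule-gene UMIs in each library.

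**Figure D1:**
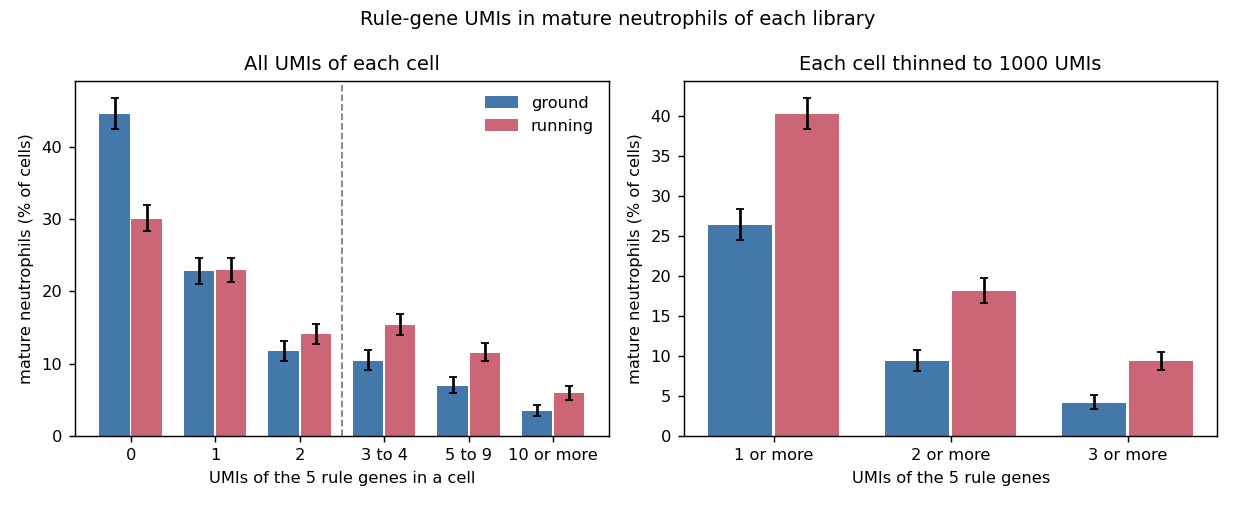
Share of mature neutrophils (y axis, % of cells) by the UMIs of the 5 rule genes in a cell (x axis) in ground (blue) and running (red), with all UMIs (left, dashed line at the rule's threshold) and after thinning each cell to 1000 UMIs (right). Error bars are exact 95% binomial intervals, which cover counting error only, and the running bars are higher from 2 UMIs upward on the left and at each minimum on the right.

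The 5 genes did not contribute equally. Rsad2, which encodes viperin, an enzyme that makes a chain-terminating nucleotide, gave 34.7% of the signature cells' rule-gene UMIs in ground and 30.6% in running. Oasl2, a member of the oligoadenylate synthetase family, gave 31.7% and 35.1%, and Isg15, a ubiquitin-like protein, 17.7% and 20.1%. Ifit1 and Ifit3, whose products bind viral RNA, gave 10.7% and 5.15% in ground and 9.11% and 5.08% in running. Only 27 signature cells in ground and 32 in running held UMIs of all 5 genes, and 76 and 105 held UMIs of a single gene. When cells were chosen on the sum of the other 4 genes, each left-out gene was higher in the chosen cells in both libraries. The log2 ratios ran from 1.37 for Oasl2 to 5.04 for Ifit3 in ground, and from 1.43 to 5.24 for the same genes in running.

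Outside the 5 genes, most of the genes that were 2-fold higher than in the other mature neutrophils in both libraries were on interferon lists, while in ground alone fewer were. Of 6388 genes with at least 50 UMIs in each library, 36 were at least 2-fold higher in the signature cells of both libraries (0.564% of the genes), and 30 of the 36 were on the interferon lists used here. In a single library, 90 genes (1.35%) were 2-fold higher in ground, 35 of them on these lists, and 80 (1.18%) in running, 43 of them on these lists. These counts describe cells that were chosen on genes of the same programme. Without the cells that carry other types' defining genes, 31 of the 36 were still 2-fold higher in both libraries, 28 of them on the interferon lists. The 5 that were not were Gbp9, Bst2, H2-DMa, Siglech and Tcf4.

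Slfn5, a Schlafen family member on chromosome 11 (82951349 to 82964850, GRCm38.p6), showed the widest gap of any gene without a near copy among the rule genes when the smaller of its ratios in the 2 libraries is taken. It stood at 208 CPM in signature cells against 33.9 CPM in the other mature neutrophils of ground, and at 285 against 46.2 CPM in running. The log2 ratios were 2.61 (interval 2.38 to 2.85) and 2.63 (2.44 to 2.82). Ifit3b gave higher ratios, 5.33 and 3.11, but it lies beside the rule gene Ifit3 and is nearly identical to it, so that reads may have been split between the 2 genes and its value is uncertain.

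The list of type I interferon-induced antiviral genes had 46 genes, of which 44 were matched and 33 in ground and 37 in running had at least 50 UMIs. Its median log2 ratio, signature cells over others, was 1.28 in ground and 1.21 in running, beside −0.01 and 0.03 over all genes. Every measured gene of the list was above 0 in both libraries, 21 of 33 and 24 of 37 were at least 2-fold higher, and 31 and 34 had intervals above 0. Summed over the 44 genes, the level was 4909 CPM in signature cells and 2292 CPM in others in ground, and 5437 and 2858 CPM in running.

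Several genes of the list act on RNA, nucleotides or receptors. Oasl1, an oligoadenylate synthetase-like protein, was at 94.4 against 13.6 CPM in ground and 59.8 against 14.6 CPM in running, log2 ratios of 2.79 and 2.03. Cmpk2, the mitochondrial nucleotide kinase that neighbours Rsad2 in the genome, was at 98.7 against 21.0 CPM and 134 against 38.4 CPM, ratios of 2.23 and 1.80. Rtp4, a chaperone of receptors that is induced by interferon, was at 336 against 96.3 CPM and 394 against 152 CPM, ratios of 1.80 and 1.38, with neither interval reaching below 1.26. For each of these genes the signature cells were the higher set in both libraries. Oas2, which makes the second messenger that activates RNase L, had ratios of 1.87 in ground and 1.23 in running. Isg20, an RNA exonuclease, had 1.38 and 1.43.

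Sensors of foreign nucleic acid were higher as well. Ifih1, which encodes the long double-stranded RNA sensor MDA5, had ratios of 1.61 in ground and 1.10 in running, and Ddx58, which encodes RIG-I, had 1.24 and 1.02. Their regulator Dhx58 differed less, with 0.69 and 0.59. Eif2ak2, the double-stranded RNA kinase PKR, was at 71.0 against 23.6 CPM in ground and 66.3 against 21.9 CPM in running, ratios of 1.59 and 1.60. Zbp1, a sensor of Z-form nucleic acid that can start necroptosis, was at 61.8 against 21.3 CPM and 100.2 against 30.7 CPM, ratios of 1.54 and 1.71. Whether these ratios differ between the libraries was not tested.

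Of 2 negative regulators of the pathway, Usp18 had one of the higher ratios and Socs1 did not. Usp18, which removes ISG15 from proteins and blocks the receptor IFNAR2, was at 35.5 against 6.53 CPM in ground and 50.1 against 8.49 CPM in running, ratios of 2.44 and 2.56, with lower bounds of 1.89 and 2.11. Socs1, an inhibitor of JAK kinases, had 20 UMIs in the signature cells of ground and 35 in those of running, with ratios of 0.88 (0.02 to 1.70) and 0.83 (0.13 to 1.53). Other genes of the list with high ratios were Xaf1, a partner of apoptosis inhibitors, at 1.98 and 2.02, and Herc6, the mouse ligase that attaches ISG15, at 1.81 and 2.29. Rnf213, a large ubiquitin ligase outside the lists, had 1.68 and 1.46. Nampt was the lowest gene of the list in both libraries, at 0.16 and 0.06, with intervals that reached 0.

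**Figure D2:**
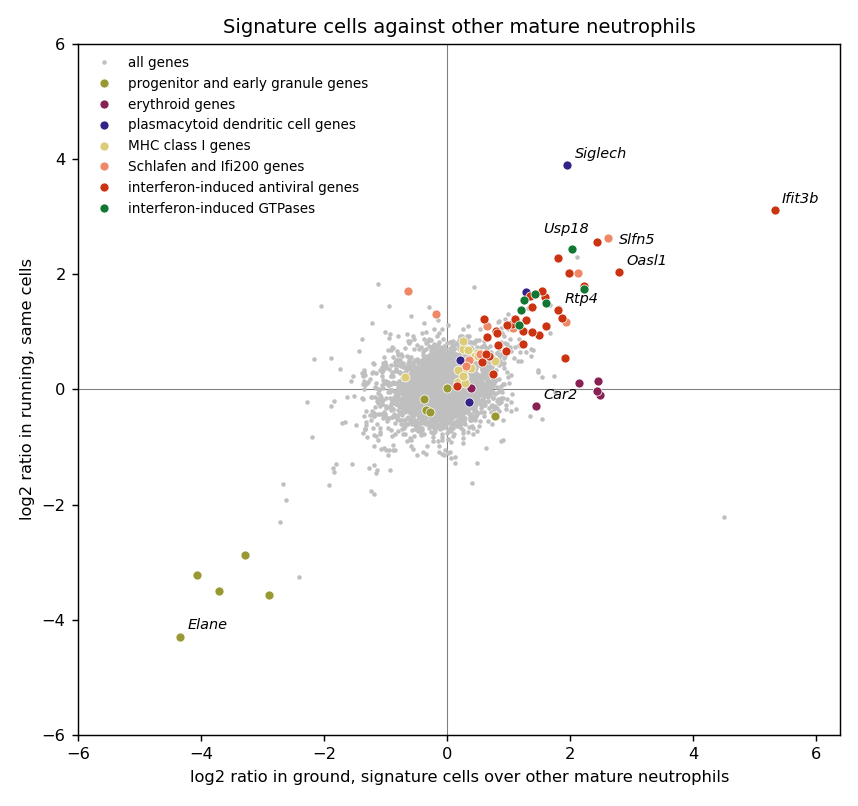
Log2 ratio of CPM, signature cells over other mature neutrophils, in ground (x axis) and running (y axis) for genes with at least 50 UMIs in each library, each point 1 gene, with the 5 rule genes left out, genes at 0 in a set not drawn and gene lists in colour. Interferon-induced genes lie in the upper right, where Slfn5 is at 2.61 and 2.63, and Elane lies in the lower left at −4.34 and −4.29, a position that rests on a few cells.

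The genes that carry the signal of the pathway differed by their place in it. The receptor genes stood almost level. Ifnar1 was at 48.6 CPM in signature cells and 40.0 CPM in others of ground, and at 52.0 and 43.9 CPM in running, and both intervals of its log2 ratio included 0 (0.28, −0.06 to 0.61, and 0.25, −0.04 to 0.53). Ifnar2 had 0.09 (−0.13 to 0.31) and 0.13 (−0.06 to 0.31), and the kinase genes Jak1 and Tyk2 had 0.09 and 0.25 in ground and 0.12 and 0.07 in running. Intervals of this width still allow differences of up to 0.61 for Ifnar1.

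Stat2 and Irf9, whose products act together on interferon-induced promoters, were higher in signature cells. Irf9 was at 136 against 67.0 CPM in ground and 132 against 72.2 CPM in running, log2 ratios of 1.02 (0.81 to 1.24) and 0.87 (0.68 to 1.06). Stat2 had 1.32 and 1.41. Irf7, the factor that amplifies interferon production and is itself interferon-induced, was at 90.0 against 25.6 CPM and 107 against 39.8 CPM, ratios of 1.82 and 1.43. The remaining factors lay closer to the others: Irf1 had 0.40 and 0.73, and Stat3, which acts downstream of G-CSF and interleukin 6, had −0.08 and 0.08. Irf8 was at 67.6 against 33.9 CPM in ground and had a ratio of 1.31 in running, but −0.35 and 0.23 without the cells carrying other types' defining genes. Over the whole list of 19 receptors, STATs and IRFs the median was 0.20 in ground and 0.40 in running, with 3 and 4 genes at 2-fold or more.

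Guanylate-binding proteins and immunity-related GTPases, which attack the membranes around intracellular microbes, were higher throughout where they could be measured. Of 17 genes, 7 had at least 50 UMIs in each library, and all 7 were at least 2-fold higher in ground and in running, with medians of 1.44 and 1.55. Gbp7 was at 73.0 against 27.0 CPM and 115 against 36.6 CPM, ratios of 1.44 and 1.65. Ifi47 was at 33.3 against 6.13 CPM in running, with ratios of 2.03 in ground and 2.44 in running, and Irgm1, which restrains the other GTPases, had 2.23 and 1.75. The other 10 genes were too low for a ratio. A gene with so few UMIs passes the minimum more easily when it is high in 1 set, so the counts of measured genes describe these genes only.

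Schlafen and Ifi200 genes were less uniform. Slfn8 had ratios of 2.14 and 2.02, Slfn4 1.07 and 1.06, Slfn1 0.53 and 0.62, and Slfn2, which keeps lymphocytes and myeloid cells quiescent, 0.31 and 0.41. Slfn8 and its neighbour Slfn9 are close copies, and reads may have been shared between them. Among the Ifi200 genes, which encode DNA sensors and chromatin-bound regulators, Ifi204 was at 153 against 40.0 CPM in ground and 250 against 111 CPM in running, ratios of 1.93 and 1.17. Ifi203 differed in sign, at 7.30 against 11.4 CPM in ground (−0.64, −1.54 to 0.16) and 28.9 against 8.80 CPM in running (1.72, 1.22 to 2.22). It rested on 15 UMIs in the signature cells of ground and 93 in those of running, of which 21 were in a single cell. These genes are near copies of one another, and their separate values are uncertain.

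Class I antigen presentation genes were higher by less than 2-fold. The list of 20 MHC class I and peptide-loading genes had medians of 0.27 in ground, over 15 measured genes, and 0.53 in running, over 20, beside −0.01 and 0.03 over all genes, and 0 genes reached 2-fold in either library. Of the measured genes 14 of 15 were above 0 in ground and 20 of 20 in running, and 9 and 17 had intervals above 0. B2m, the invariant light chain, was at 652 against 544 CPM in ground and 1233 against 1005 CPM in running, ratios of 0.26 (0.17 to 0.35) and 0.30 (0.24 to 0.35). Tap1, the peptide transporter subunit, had 0.78 and 0.49, and Psmb8 and Psmb9, subunits of the immunoproteasome, had 0.46 and 0.51 in ground and 0.58 and 0.57 in running. The Ifitm genes, whose products block viral entry at membranes, differed among themselves. Ifitm3 had 0.57 and 0.48, whereas Ifitm6 had −0.17 and −0.25 with both intervals below 0.

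The 5 rule genes were then used as a scale. The summed level of the antiviral list and that of Slfn5 were higher at each step of the scale, below the threshold as well as above it. Slfn5 went from 24.3 CPM in ground cells with 0 rule-gene UMIs to 42.0, 54.6, 102, 158 and 614 CPM in cells with 1, 2, 3 to 4, 5 to 9, and 10 or more. In running the same steps were 22.7, 50.8, 88.8, 138, 284 and 693 CPM. The level of the whole antiviral list climbed from 1938 to 7957 CPM in ground and from 2353 to 8560 CPM in running. Not every gene did so at each step. In ground Ifi47 was at 4.95, 3.82 and 1.88 CPM in cells with 0, 1 and 2. Stat2 was at 9.16 CPM in cells with 0 and 5.65 CPM in cells with 2. Both were highest, at 52.1 and 46.3 CPM, in cells with 10 or more. Median UMIs along the scale ran from 4019 to 4665.5 in ground and from 3371 to 3588.5 in running. The deepest cells of ground were those with 5 to 9 and with 10 or more, and the shallowest of running those with 10 or more.

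**Figure D3:**
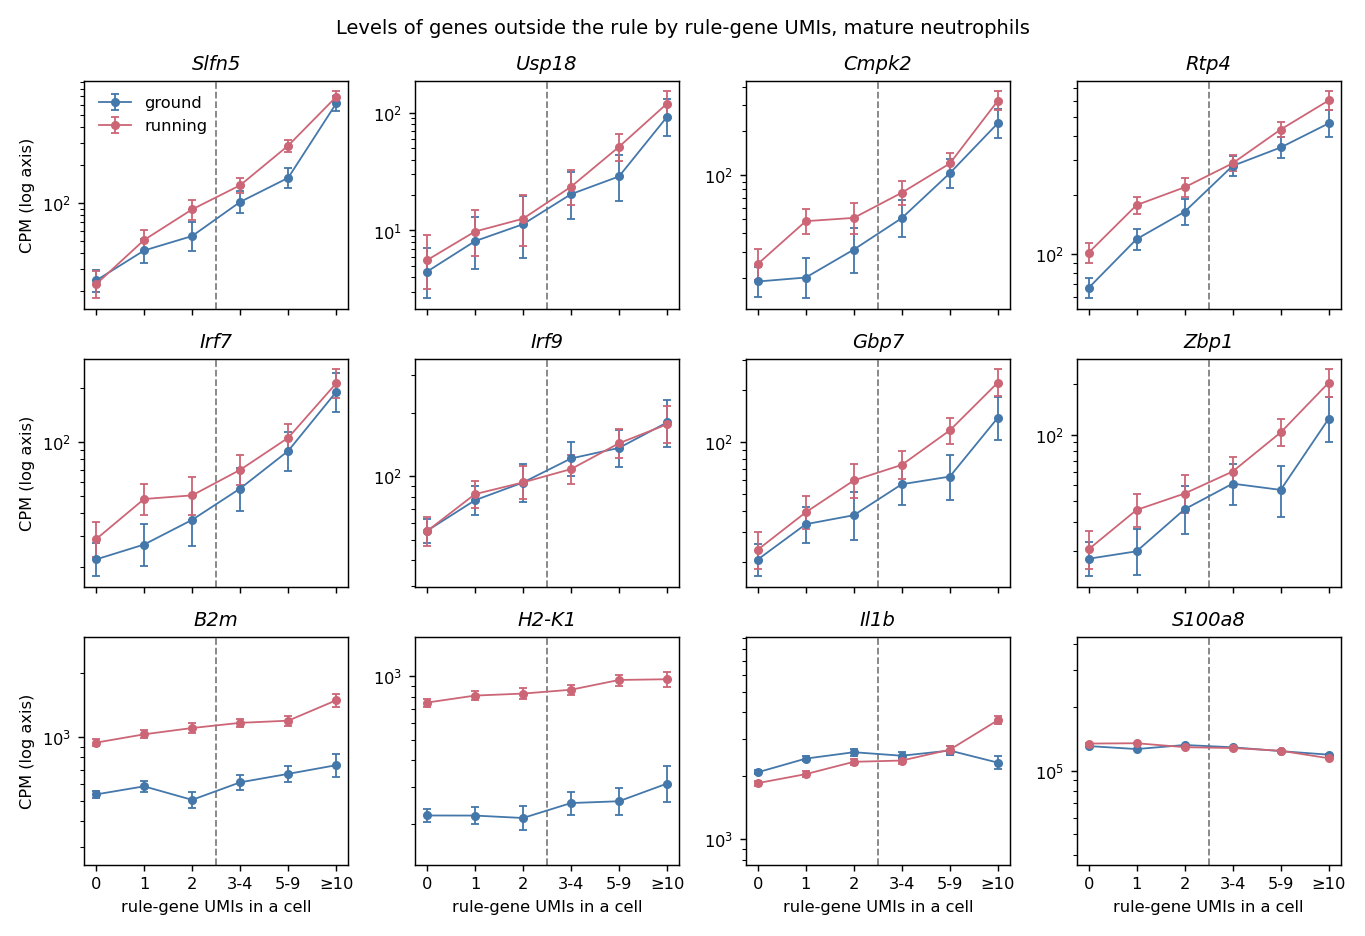
CPM (y axis, log scale) of 12 genes outside the rule, S100a8 excepted, in mature neutrophils binned by the UMIs of the 5 rule genes in a cell (x axis), for ground (blue) and running (red), with exact 95% Poisson intervals and a dashed line at the threshold of 3. Slfn5 climbed from 24.3 to 614 CPM in ground and from 22.7 to 693 CPM in running, whereas S100a8 was at 130938 and 119209 CPM at the ends of the scale in ground and at 134591 and 114651 CPM in running.

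Within the signature cells, those with 10 or more rule-gene UMIs (71 and 149) were set against those with 3 to 4 (216 and 388). In this contrast 2.53% of 2565 genes in ground and 2.49% of 3568 in running were at least 2-fold higher. The antiviral list had 14 of 24 measured genes at 2-fold or more in ground and 21 of 30 in running, with medians of 1.34 and 1.32, or 1.37 and 1.43 without the cells carrying other types' defining genes. In ground the markers of other cell types were higher too, with medians of 3.12 for erythroid (6 measured), 2.14 for plasmacytoid dendritic (5) and 0.85 for B cell markers (4). Without those cells these medians were −0.11, 0.11 and 0.24. Slfn5 was at 614 against 102 CPM in ground and 693 against 138 CPM in running, log2 ratios of 2.59 and 2.33, and Usp18 had 2.19 and 2.35. Herc6 was at 102 against 9.81 CPM in running, a ratio of 3.38. Ifi47 had 3.12 there. Irf7 had 1.80 and 1.61, and Rtp4 had a smaller step of 0.72 and 1.07. Each of these named genes was higher in the cells with 10 or more.

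Maturation and granule genes differed little between signature cells and the others. The list of 24 maturation and release genes had medians of 0.05 and 0.04, and 0 genes at 2-fold in either direction in either library. Cxcr2, the chemokine receptor that draws neutrophils out of the marrow, was at 1773 against 1601 CPM in ground and 1431 against 1316 CPM in running, ratios of 0.15 (0.09 to 0.20) and 0.12 (0.07 to 0.17). Cxcr4, which holds them in the marrow, had −0.02 (−0.18 to 0.14) and −0.03 (−0.14 to 0.08). Specific and gelatinase granule genes had medians of −0.07 and −0.17. Among these Mmp8, the neutrophil collagenase, was level in ground at 2358 against 2363 CPM and lower in running at 2110 against 2453 CPM, a ratio of −0.22 (−0.26 to −0.18). Cybb, the catalytic subunit of the phagocyte NADPH oxidase, was lower in both, with −0.27 (−0.43 to −0.11) and −0.32 (−0.42 to −0.21).

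Inflammatory genes of the NF-kB group differed modestly, with the larger list median in running. Il1b, the precursor of interleukin 1β, was at 2509 CPM in signature cells and 2249 CPM in others of ground, and at 2691 and 2012 CPM in running, ratios of 0.16 (0.11 to 0.20) and 0.42 (0.38 to 0.46). With the other mature neutrophils weighted to the signature cells' UMI depth, these ratios were closer together, at 0.31 and 0.45. In running, Il1b stood at 1845 CPM in cells with 0 rule-gene UMIs and at 3665 CPM in cells with 10 or more. In ground the same cells had 2077 and 2307 CPM, with a highest value of 2632 CPM at 5 to 9. Ccl3 and Ccl4, chemokines that attract leukocytes, had opposite signs in the 2 libraries. Ccl3 was at 71.5 against 87.0 CPM in ground, −0.28 (−0.55 to −0.02), and at 320 against 209 CPM in running, 0.61 (0.49 to 0.73). Weighted for depth in the same way, Ccl3 had −0.10 in ground and 0.62 in running. Of its 147 UMIs in the signature cells of ground, 24 were in 1 cell. Ccl4 was at 95.3 against 125 CPM and at 305 against 214 CPM, −0.39 (−0.62 to −0.16) and 0.51 (0.39 to 0.63). Cxcl10, an interferon-induced chemokine, had 0 UMIs in the signature cells of ground and 35 in those of running, all in 4 cells and 25 of them in 1. Over the list of 26 genes the medians were 0.13 and 0.25, with 0 genes at 2-fold.

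The medians of the remaining lists lay near those of all genes. Glycolysis genes had medians of −0.04 and −0.02, AP-1 and immediate early genes 0.12 and 0.15, BCL2 family genes 0.09 and 0.02, NADPH oxidase genes −0.03 and −0.13, and STAT3 and acute-phase genes 0.08 and 0.18. In the AP-1 list 14 of 17 measured genes were above 0 in ground and 17 of 18 in running, with 8 and 12 intervals above 0. Among single genes of these lists, Steap4, a metalloreductase, had 0.46 (0.27 to 0.65) and 0.82 (0.42 to 1.22). Egr1, an immediate early transcription factor, had 0.38 (0.22 to 0.55) and 0.68 (0.56 to 0.80). Hk2, a hexokinase, had 0.64 (0.33 to 0.94) and 0.35 (0.10 to 0.60). These 3 genes were higher in both libraries, by less than 2-fold.

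Most of the genes with the lowest ratios were those of early neutrophil precursors, and their UMIs lay mostly in few cells of the comparison set. In ground 2.37% of genes were at least 2-fold lower, in running 0.784%, and 23 genes (0.36%) were so in both. Elane, neutrophil elastase, was at 33.6 against 681 CPM in ground and 27.1 against 531 CPM in running, and Prtn3, Ctsg, Mpo, Fcnb and Ms4a3, other products of early neutrophil precursors, lay beside it. Of the UMIs of the progenitor-defining genes in the other mature neutrophils, 93.1% lay in 16 cells in ground and 93.5% in 11 cells in running. Gstm1 and the pre-B cell gene Vpreb1 were also among the 8 lowest. Vpreb1 had 0 UMIs in the signature cells of ground against 86 in the others, and a ratio of −2.01 in running. Gstm1 had −2.72 and −2.31. Without cells that carry other types' defining genes, 0 of the 23 genes were 2-fold lower in both libraries, and Elane had ratios of 0.12 and 0.43. Gstm1 then had −0.83 and −1.23, and Vpreb1 had −0.37 in running. Elane, Prtn3, Mpo and Ctsg are themselves the progenitor-defining genes, so the change in their ratios was largely set by which cells were left out.

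Traces of other cell types were also present among the signature cells. Defining genes of B cells marked the most signature cells, 6 in ground and 21 in running, beside 51 and 28 of the others. B cell markers had median log2 ratios of −0.02 and 0.39, or −0.07 and 0.03 without cells carrying other types' defining genes. Monocyte markers had 0.26 and 0.37, or −0.09 and 0.27 without them. Siglech, a defining gene of plasmacytoid dendritic cells, the chief producers of type I interferon, was at 35.0 against 9.03 CPM in ground and had 45 UMIs in signature cells against 6 in the others of running. Of the 72 and 45 UMIs in signature cells, 47 and 24 were in a single cell of each library, and without cells carrying other types' defining genes the ratios were 0.63 and 0.01. Over the 10 markers of that type the summed level was 287 against 159 CPM in ground and 217 against 141 CPM in running, and 0 of the markers were at 0 in the signature cells. Erythroid markers summed to 4150 against 789 CPM in ground and 524 against 508 CPM in running, with a median log2 ratio of 2.45 in ground that became 0.06 without those cells. The antiviral list kept medians of 1.25 and 1.15 without them.

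Running and ground were then compared within the signature cells, with the same ratio in the other mature neutrophils beside it. Both come from the same 2 libraries. Within signature cells 2.95% of 5458 genes were at least 2-fold higher in running and 1.78% at least 2-fold lower. In the other mature neutrophils the shares were 1.53% and 2.08% of 7499 genes.

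Interferon-induced antiviral genes went both ways between the libraries within the signature cells. Their median log2 ratio, running over ground, was 0.06 in signature cells (35 genes, 3 at 2-fold or more) and 0.16 in the others (35 genes, 2 at 2-fold or more), beside 0.11 and 0.04 over all genes. Over all mature neutrophils together it was 0.32, and it was 0.17 when the sets were combined with the ground share of signature cells. Among the 35 genes in signature cells the ratios ran from −0.77 to 1.68, with 9 intervals above 0 and 7 below. Zbp1 had 0.70 (0.40 to 1.01) in signature cells and 0.53 (0.22 to 0.84) in the others, whereas Oasl1 had −0.66 (−0.95 to −0.36) and 0.10 (−0.32 to 0.53), and Samd9l had −0.77 and −0.76. Rtp4 had 0.23 (0.10 to 0.37) and 0.66 (0.51 to 0.80). The minimum of 3 rule-gene UMIs applied in both libraries, so these values describe the cells chosen.

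Some pathway genes outside that list were higher in running. The GTPase list had medians of 0.65 in signature cells and 0.56 in the others over 7 genes. Without cells carrying other types' defining genes these medians were 0.64 and 0.82. Ifi204 had 0.71 and 1.47. Class I genes were higher in running in both sets of cells, with list medians of 0.61 and 0.65. H2-K1, a classical class I heavy chain on chromosome 17, was at 262 CPM in the signature cells of ground and 915 CPM in those of running, a ratio of 1.80 (1.67 to 1.94) beside 1.85 in the others. B2m had 0.92 and 0.88. H2-Q6 and H2-Q7, non-classical heavy chains that are near copies of each other, had 4 and 14 UMIs in the signature cells of ground and 294 and 531 in those of running. Their ratios of 5.56 and 4.60 in signature cells, and of 3.59 and 3.70 in the others, are uncertain because reads can be split among the H2-Q genes. H2 genes also differ between mouse strains, and since the labels name no strain, a difference in strain and a difference in level cannot be told apart for H2-K1, H2-Q6 and H2-Q7.

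**Figure D4:**
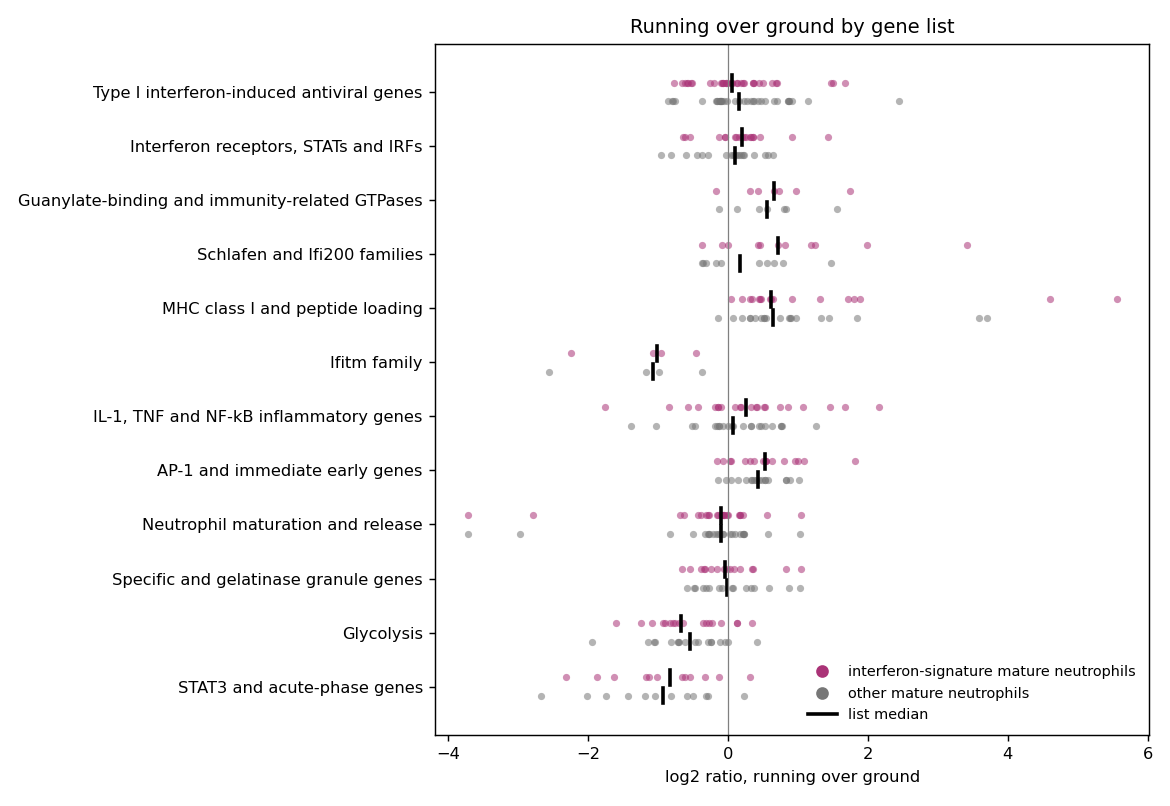
Log2 ratio of CPM, running over ground (x axis), for the genes of 12 lists (y axis), each point 1 gene with at least 50 UMIs, in signature cells (purple) and other mature neutrophils (grey), with black bars at the list medians. The medians of the antiviral list are 0.06 and 0.16, those of the STAT3 and acute-phase list −0.83 and −0.93, and those of the Schlafen and Ifi200 list 0.71 and 0.18. The Schlafen and Ifi200 medians cover 11 and 10 genes, and are 0.72 and 0.46 without cells carrying other types' defining genes.

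Ccl3 was among the highest ratios in signature cells that were not class I genes, with 71.5 CPM in ground against 320 CPM in running, 2.16 (1.91 to 2.42) beside 1.27 (1.13 to 1.40) in the others. Nr4a1, an immediate early nuclear receptor, had 1.82 (1.04 to 2.68) beside 0.58, and Ptpn22, a phosphatase that restrains immune signalling, 1.93 (1.15 to 2.79) beside 0.78. Arl4c, a small GTPase, had 1.89 beside 1.56. Ccl5, a chemokine of T and NK cells, had 3.22 beside −0.28, and 38 of its 160 UMIs in the signature cells of running were in 1 cell. Without cells carrying other types' defining genes it had 1.22 beside 1.18 in the others. The gap between the 2 sets of cells in Ccl3, Nr4a1 and Ptpn22 has no replicate and was not tested.

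The genes with the lowest ratios of running over ground had like ratios in both sets of cells, apart from 3 named last. Prok2, a secreted chemoattractant of mature neutrophils, was at 160 CPM in the signature cells of ground and 12.1 CPM in those of running, −3.72 beside −3.72 in the others. Igfbp6, an insulin-like growth factor binding protein, had −3.24 beside −3.50. Wfdc17 was at 4221 and 614 CPM, −2.78 beside −2.98. Ifitm1 was at 4664 and 983 CPM, −2.25 beside −2.56, and Ifitm2 and Ifitm6 had −0.95 and −1.07, so that these interferon-inducible membrane proteins were lower in running where Gbp7 was higher. Steap4 had −2.31 beside −2.67, Egln3, an oxygen sensor, −2.24 beside −2.18, and Cdc25b, a cell-cycle phosphatase, −2.01 beside −1.85. The ratios of Slc4a1, Car2 and Mki67, at −4.07, −2.15 and −2.11 in signature cells, became −0.51, −0.50 and 0.31 without the cells carrying other types' defining genes.

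**Figure D5:**
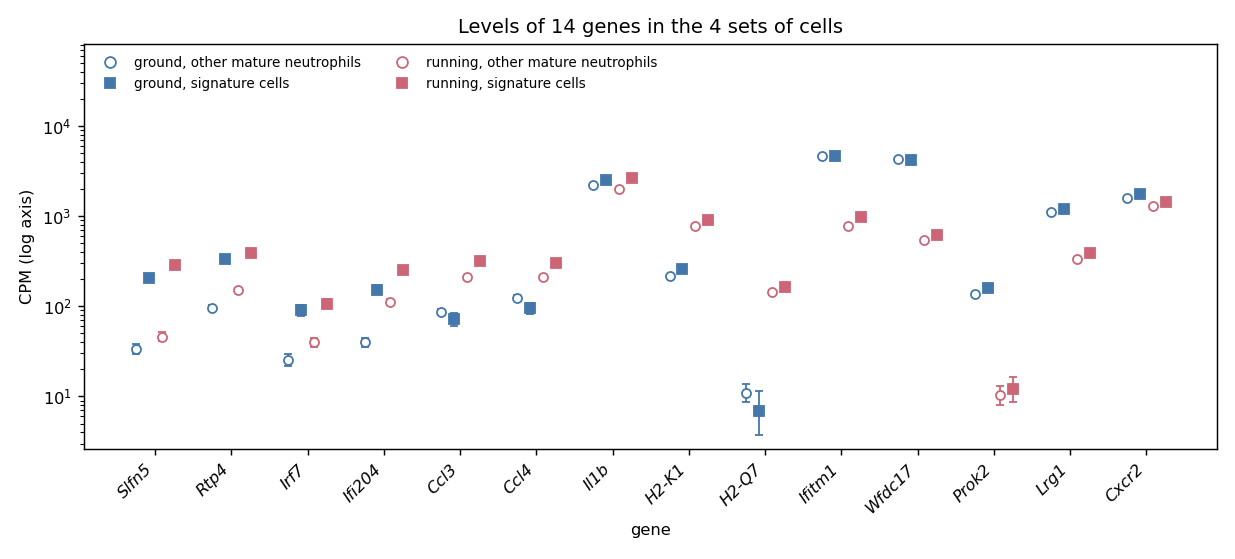
CPM (y axis, log scale) of 14 genes (x axis) in signature cells (filled squares) and other mature neutrophils (open circles) of ground (blue) and running (red), with exact 95% Poisson intervals that are often smaller than the symbols. Slfn5 and Rtp4 separate the 2 kinds of cell in each library, whereas Ifitm1, Wfdc17, Prok2 and H2-K1 separate the libraries, with Prok2 at 160 CPM in ground signature cells and 12.1 CPM in running ones.

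Among longer lists, STAT3 and acute-phase genes had medians of −0.83 in signature cells and −0.93 in the others, and glycolysis genes −0.67 and −0.54. Lrg1, a secreted glycoprotein of the acute phase, was at 1196 CPM in the signature cells of ground and 386 CPM in those of running. AP-1 and immediate early genes had medians of 0.53 and 0.43, and NF-kB genes 0.26 and 0.08. Maturation genes had −0.10 and −0.09. Whether these differences between the libraries belong to running, to the animals or to the preparation of the cells cannot be told apart with 1 library per group.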

How the data were processed

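Single-cell libraries of hindlimb bone marrow from ground and running mice, 1 per group, were analysed. The deposited values are unnormalized UMI counts for each gene in each barcode. The file headers name Cell Ranger 5.0.0 as their source. The submitters' processing notes add STAR and mm10. Other upstream filters are not stated. Members and lists were chosen with earlier results of these data known, and the alternative without other types' cells was added after the data were seen. Counts were summed over cells and scaled to CPM. Ratios carry exact conditional binomial intervals, shares Clopper-Pearson intervals and sums Poisson intervals, all at 95%. Only the ratio intervals were tried on simulated counts, for running over ground within signature cells. Those counts were drawn independently, so UMIs that lie together in single cells were not covered. Genes needed 50 UMIs over the sets compared, and the 5 rule genes were left out. No test was run, since cells are not replicates.

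Doublets were scored with Scrublet (scanpy 1.11.5). Its own threshold marked 244 barcodes in ground (2.74%) but 3 in running (0.0327%), so the ground threshold of 0.242 was used in both, which marked 183 in running (1.99%). Doublets were kept, as the rule says. Mitochondrial, ribosomal and haemoglobin genes, antigen receptors, Xist, Y-linked genes and unnamed ones were not named. Named genes were the 20 highest and 8 lowest ratios against other mature neutrophils by the smaller value of the 2 libraries, the 10 highest and 10 lowest ratios of running over ground among genes with 100 UMIs, from each list the largest ratios and those whose role orders the account, and Il1b, Rtp4 and S100a8. Cxcl10 was singled out after its values were seen. Coordinates are from RefSeq, GRCm38.p6. Python 3.11.15, numpy 2.4.6, scipy 1.17.1 and pandas 2.3.3 were used. Alternatives covered the UMI minimum, thinning, depth, doublets, the gene minimum, scaling and each rule gene left out.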

Additional observations from a re-analysis of the deposited data

Results flagged for a closer look

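The list of T and NK cell markers lay on opposite sides of 0 in the 2 libraries, with a median log2 ratio of signature cells over other mature neutrophils of −2.05 in ground, over 3 measured genes, and 0.73 in running, over 4. The difference between the libraries was not tested. In ground 1 signature cell and 11 other mature neutrophils held 5 or more UMIs of the type's defining genes, and in running 5 and 11 did. Without the cells carrying other types' defining genes the medians were 0.31 and −0.20.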

How the results depend on the processing

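The share of signature cells stayed higher in running in each alternative. With a minimum of 2, 5 or 10 UMIs it was 32.5%, 10.4% and 3.43% in ground and 46.9%, 17.4% and 5.92% in running. In cells thinned to 1000 UMIs with a minimum of 1, 2 or 3 it was 26.4%, 9.34% and 4.15% in ground and 40.3%, 18.1% and 9.31% in running, and the ratio of the shares was 1.94 and 2.24 at 2 and 3, against 1.58 in full cells. Without Isg15, Rsad2 or Oasl2 in the sum it was 17.4%, 14.8% and 11.7% in ground and 26.6%, 25.4% and 18.6% in running. The antiviral list's median ratio in running was 1.38 with a minimum of 5 rule-gene UMIs, against 1.21. Of 336 alternative values for 42 medians of lists other than markers, 332 stayed within their spread, 4 moved and 0 changed sign.

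Counts of genes at 2-fold depended on the gene minimum. With 20 and 100 UMIs, 227 and 54 genes were higher in the signature cells of ground, against 90, and 441 and 55 lower, against 158. In running 202 were higher with 20 UMIs, against 80, and 193 and 26 lower, against 53. For running over ground in signature cells, 396 and 65 were higher, against 161, and 233 and 59 lower, against 97. The cause of these moves is that fewer or more low genes enter.

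Medians of marker lists changed sign where a few cells carried them. Weighting for depth gave −0.0226 for B cell markers in running, against 0.39. Removing doublets gave 0.0590 for T or NK markers and −1.15 for plasmacytoid dendritic cell markers in ground, against −2.05 and 1.32. Without cells carrying other types' defining genes, T or NK markers in ground had 0.31, erythroid markers (running over ground, signature cells) 0.0218, against −2.91, and in running eosinophil, basophil or mast cell markers 0.00759, against −0.36, and early neutrophil and progenitor markers 0.0230, against −1.67.

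No paired analysis was possible because each group had 1 library. Depth limits genes under about 50 UMIs, such as Cxcl10 and most GTPases, and UMIs are subject to sampling of cells as well as of molecules.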

Other observations

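The running excess of the 5 rule genes was not limited to mature neutrophils. Their summed level was 414 CPM in the mature neutrophils of ground and 729 CPM in those of running, 42.5 and 112 CPM in immature neutrophils, 54.7 and 156 CPM in monocytes, 19.5 and 41.0 CPM in B cells and 32.3 and 101 CPM in T cells. In cells with at least 20% haemoglobin transcripts it was 515 and 809 CPM, above the level of mature neutrophils in each library. In cells thinned to 1000 UMIs, at least 1 such UMI was seen in 5.02% and 11.3% of immature neutrophils, 6.14% and 15.6% of monocytes, 1.79% and 4.11% of B cells and 2.30% and 5.92% of T cells. Free RNA can add to each of these values, and it was neither measured nor separated from them.

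Along the rule-gene scale of running, genes of neutrophil maturity went both ways. Cxcr2 was at 1264 CPM in cells with 0 rule-gene UMIs and 1514 CPM in cells with 10 or more. The list of maturation genes had a median log2 ratio of 0.02 between cells with 10 or more and those with 3 to 4, with 14 of 23 measured genes above 0, 8 intervals above 0 and 6 below. Retnlg was at 33821 CPM in cells with 0 rule-gene UMIs and 25923 CPM in cells with 10 or more, and Mmp8 at 2438 and 1821 CPM. In ground Retnlg was at 32621 and 30493 CPM and Mmp8 at 2464 and 2394 CPM. Fcgr4, an activating Fc receptor, was at 71.9 CPM in the running signature cells with 3 to 4 rule-gene UMIs and 165 CPM in those with 10 or more, a log2 ratio of 1.20 (0.78 to 1.61), against 113 and 116 CPM in ground. Retnlg, Mmp8, Cxcr2 and Fcgr4 were singled out after their values were seen.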
